A study of Arabidopsis thaliana with 30 samples.

Results

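The 44 genes described here build the lignified secondary wall of xylem vessels and fibres in Arabidopsis thaliana. They were chosen by name and known role: 12 NAC and MYB transcription factors, 3 cellulose synthases, 6 xylan synthesis genes, 8 genes of the entry to phenylpropanoid metabolism, 10 monolignol genes, 3 laccases and 2 xylem proteases. The choice was made with earlier results of these data known. All 44 were found among the 38194 loci of the deposited table, and 39 of them passed the filter on low counts, which left 21052 loci for testing. The 5 that did not pass were NST1, NST2, NST3, MYB52 and MYB54, all of them regulators.

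Secondary walls are laid down inside the primary wall when a xylem cell stops expanding. NAC master switches (the VND factors in vessels, the NST factors in fibres) turn on MYB46 and MYB83, which in turn drive the genes for cellulose, xylan and lignin. Lignin begins with phenylalanine: the phenylpropanoid enzymes turn it into monolignols, which laccases and peroxidases polymerise in the wall. The first steps of that pathway also feed flavonoids and other phenolics made throughout the leaf, so PAL and 4CL transcripts are not confined to xylem.

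RNA was sequenced from leaves 1 and 2 of Columbia-0 plants grown for 10 d, detached, surface sterilised and shaken in buffer with Murashige and Skoog salts, 5% glucose and 0.2% dimethyl sulfoxide. Mock leaves received that buffer alone, and stimulus leaves the same buffer with 20 µM bikinin, an inhibitor of the GSK3 kinases of brassinosteroid signalling, the synthetic auxin 2,4-D at 2.5 µg/mL and kinetin, a cytokinin, at 0.5 µg/mL. Such a mixture is used to turn leaf cells toward vascular fates. Leaves were frozen at 6, 7, 8, 9 or 10 h, with 3 libraries per treatment and time and many leaves pooled in each, and the comparison asks whether wall genes had risen in the stimulus by 10 h. The libraries are of whole leaves, so fewer cells of a type and less RNA per cell cannot be told apart.

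Libraries held 14981271 to 22729166 counts. The columns for mock 6 h replicate 3 and mock 7 h replicate 3 were identical at every locus, so the 30 columns hold 29 distinct libraries, 14 of them mock, and the shared column was counted once in ranges over the mock libraries. Whether that library belongs to 6 or 7 h is not known, and its values stand under both labels. Fits without the identical columns dropped both of them, and so kept stimulus but no mock replicate 3 at 6 and 7 h. Replicate 3 differed from the other two in all groups, with 0.556 to 0.872% of counts on plastid loci against 1.37 to 3.09%. Summed transcripts of 5 leaf mesophyll markers, all of them lower in the stimulus on average, ran from 8846 to 21037 CPM in mock and from 5657 to 11404 CPM in stimulus. Of 5 phloem markers 2 were higher in the stimulus, among them the sucrose transporter gene SUC2 (log2 fold change 1.28 ± 0.09, SE). Of the other markers 2 of 5 epidermal and 1 of 4 guard cell genes were lower, as was the 1 root marker of 5 that passed the filter. Of all tested loci 29.7% were higher on average and 27% lower. With the replicate number as a block in the fit, 4 phloem markers were higher and all 5 epidermal ones lower. The shares of all loci just given belong to the fit without that block, and those with it are not given here. The root sum stayed at or below 2.32 CPM in every library. The part of these marker differences in the results on wall genes was not tested.

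Values per library are counts scaled to TMM-adjusted library size (CPM), and levels of different genes are compared only as CPM per kilobase of exon (RPKM). Changes are log2 fold changes of stimulus over mock with their standard error from edgeR's quasi-likelihood test, fitted to all 30 columns and called at a Benjamini-Hochberg adjusted p under 0.05 over all tested loci. The labels name the replicates as biological but do not say that they came from separate sowings, so the p-values rest on the spread among these libraries alone, with the 5 times of a replicate number taken as separate libraries.

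Promoters are shown for members that carry the elements through which MYB factors and xylem switches are known to act on this pathway. The 250 bases before each annotated start in TAIR10.1 were searched on both strands for AC element I (ACCTACC), AC element II (ACCAACC) and the tracheary-element-regulating element TERE (CTTNAAAGCNA, where N is any base). AC element II lay in 738 of 27443 nuclear protein-coding promoters (2.69%) and in 7 members: MYB83, 4CL2, HCT, CYP98A3, CCR1, CAD5 and LAC11. AC element I lay in 1.16% of all promoters and in 2 members, 4CL3 and CCoAOMT1. TERE lay in 0.368% of all promoters and in 2 members, CESA4 and XCP1. The windows below run 5′ to 3′ toward the gene, with the elements in capitals.
4CL3 (chr1:24171636-24171885, minus strand), with AC element I at 2 places: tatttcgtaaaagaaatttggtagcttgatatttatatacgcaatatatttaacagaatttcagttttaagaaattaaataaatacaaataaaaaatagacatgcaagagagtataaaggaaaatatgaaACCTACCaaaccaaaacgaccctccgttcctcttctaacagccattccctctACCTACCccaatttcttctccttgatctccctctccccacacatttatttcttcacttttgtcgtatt
HCT (chr5:19838236-19838485, minus strand), with AC element II: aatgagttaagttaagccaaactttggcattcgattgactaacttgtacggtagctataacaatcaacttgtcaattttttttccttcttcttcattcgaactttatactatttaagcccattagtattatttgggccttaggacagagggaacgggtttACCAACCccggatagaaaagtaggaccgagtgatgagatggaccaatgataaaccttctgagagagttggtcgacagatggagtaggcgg
CYP98A3 (chr2:17060653-17060902, minus strand), with AC element II: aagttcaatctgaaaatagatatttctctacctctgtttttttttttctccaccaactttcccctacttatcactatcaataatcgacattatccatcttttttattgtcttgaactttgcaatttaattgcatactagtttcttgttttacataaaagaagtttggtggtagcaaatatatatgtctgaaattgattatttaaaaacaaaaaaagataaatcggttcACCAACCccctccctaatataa
LAC11 (chr5:779425-779674, minus strand), with AC element II: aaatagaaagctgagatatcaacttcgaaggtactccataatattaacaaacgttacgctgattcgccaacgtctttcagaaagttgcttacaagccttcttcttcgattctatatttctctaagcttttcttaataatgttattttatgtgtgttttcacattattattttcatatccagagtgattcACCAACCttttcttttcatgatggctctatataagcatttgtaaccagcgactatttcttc
XCP1 (chr4:16810232-16810481, plus strand), with TERE: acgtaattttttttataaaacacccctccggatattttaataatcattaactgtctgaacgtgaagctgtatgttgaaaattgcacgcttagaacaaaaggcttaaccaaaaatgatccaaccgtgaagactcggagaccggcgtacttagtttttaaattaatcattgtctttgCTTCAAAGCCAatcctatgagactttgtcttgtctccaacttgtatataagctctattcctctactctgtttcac
The same AC element II is thus printed before 2 monolignol genes that fell, HCT and CYP98A3, and before a laccase gene that rose, LAC11, and the TERE before XCP1, whose level gave no call in either direction, as described in turn below. Of the other members with AC element II, 4CL2 and CAD5 were lower on average, and MYB83 and CCR1 gave no call.

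Averaged over the 5 times, 24 of the 39 tested members were lower in the stimulus, against 27% of all tested loci, and 2 were higher, against 29.7%. The members' median log2 fold change was −0.54 and that of all loci 0.02. None of the 39 was higher by more than 2-fold, and 6 were lower by more than 2-fold: MYB58, MYB63, PAL2, 4CL2, CCR2 and COMT1. The calls were uneven across roles. All 8 entry genes, 8 of 10 monolignol genes, all 3 cellulose synthases and 4 of 7 tested regulators were lower, and of the 11 genes for xylan, laccases and proteases only IRX9 was lower, while IRX14 and LAC11 were higher. When the counts of each replicate were summed over the 5 times, leaving 3 mock and 3 stimulus sums, 5 members were lower (MYB63, PAL2, PAL4, CSE and CCR2), against 3.65% of loci, and the calls of IRX14 (0.23, adjusted p = 0.363) and LAC11 (0.44, adjusted p = 0.232) were lost.

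**Figure D1:**
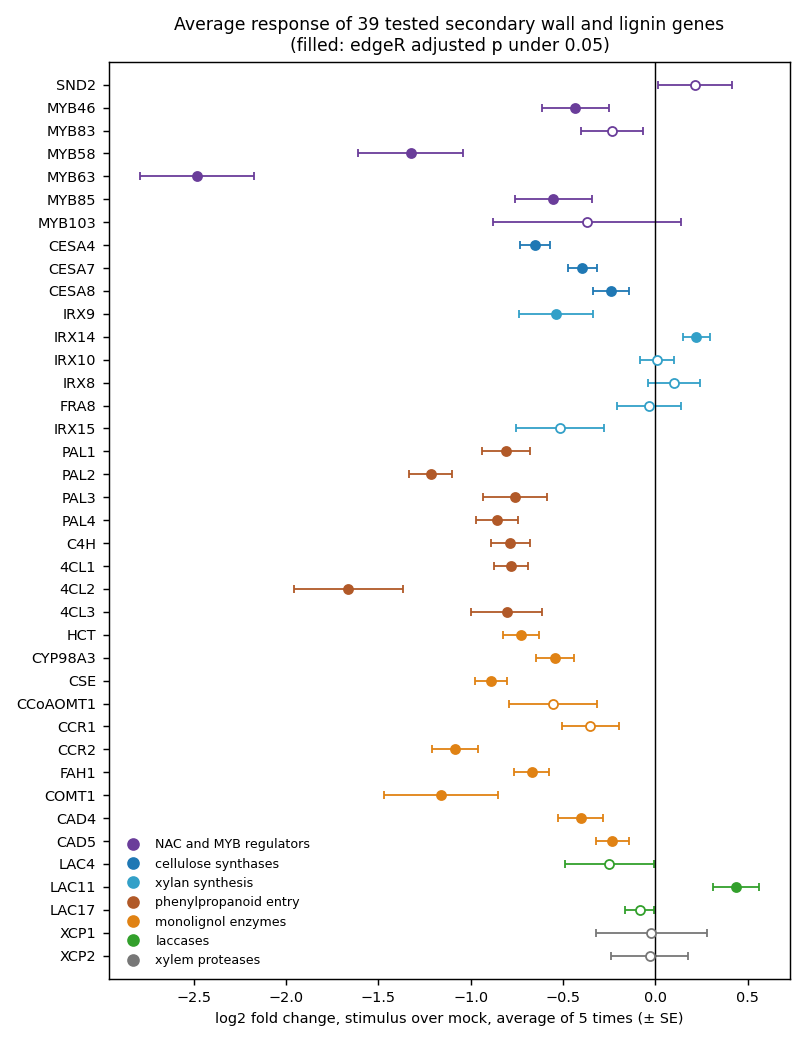
Average log2 fold change of stimulus over mock (x axis, ± SE) for the 39 tested members, coloured by role, with filled points for an edgeR adjusted p under 0.05. The 8 phenylpropanoid entry genes lie between −1.66 and −0.76, and the filled points right of 0 are IRX14 and LAC11.

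The NST factors, the fibre switches, were at or near 0. NST3 (AT1G32770) had 0 counts in all 29 libraries, where the 3 counts that a count of 0 allows correspond to at most 0.122 to 0.226 CPM per library, and NST1 (AT2G46770) had 1 count in total, in mock 10 h replicate 1. NST2 (AT3G61910) had 54 counts in all, 0 to 0.428 CPM in mock (median 0.124) and 0 to 0.211 CPM in stimulus (median 0). These limits cover counting error only. MYB52 (AT1G17950) and MYB54 (AT1G73410) were measured at 0.488 CPM or less in every library.

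MYB46 (AT5G12870) and MYB83 (AT3G08500), the paired MYB switches beneath the NAC factors, were present at low level in both treatments. MYB46 ran from 0.730 to 2.19 CPM in mock (median 1.29) and from 0.483 to 1.42 CPM in stimulus (median 0.898), and its average log2 fold change was −0.43 ± 0.18 (SE; edgeR adjusted p = 0.045). The libraries of the treatments overlapped, and the call was lost when any of 19 single libraries was left out (adjusted p 0.118 without mock 6 h replicate 1, with a log2 fold change of −0.31). At 10 h MYB46 stood at 0.869, 1.48 and 1.28 CPM in mock and at 1.42, 0.697 and 1.03 CPM in stimulus, and the 95% interval of its log2 fold change there reached from −1.04 to 0.62.

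MYB83 stood at 0.712, 0.645 and 0.771 CPM in mock at 6 h and at 0.268, 0.264 and 0.476 CPM in stimulus. At 10 h it stood at 1.14, 0.911 and 0.672 CPM in mock and at 0.820, 0.779 and 0.598 CPM in stimulus. The 6 h groups did not overlap and the 10 h groups did. Its average log2 fold change was −0.24 ± 0.17 (edgeR adjusted p = 0.241). In the stimulus its level changed by 0.29 ± 0.09 log2 units per hour (adjusted p = 0.132), a slope that was called with the replicate number as a block (0.30, adjusted p = 0.0455) and in replicates 1 and 2 alone (0.40, adjusted p = 0.0116). The mock slope was 0.13 ± 0.08, and the difference of the slopes, 0.17 ± 0.12, had an adjusted p near 1.

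MYB63 (AT1G79180) and MYB58 (AT1G16490), activators of lignin genes, fell furthest among the regulators. MYB63 ran from 0.828 to 3.37 CPM in mock (median 2.30) and from 0 to 0.912 CPM in stimulus (median 0.287). At 10 h it stood at 3.37, 2.67 and 1.40 CPM in mock and at 0.273, 0.287 and 0.109 CPM in stimulus. Every stimulus library lay below every mock library of its own hour. The average log2 fold change of MYB63 was −2.48 ± 0.31 (edgeR adjusted p = 5.49e-07), the steepest of the 39, and it was lower at 7, 8, 9 and 10 h, and at 6 h with the replicate block (−1.98, adjusted p = 0.00119).

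MYB58 ran from 0.149 to 0.855 CPM in mock (median 0.455) and from 0.0407 to 0.410 CPM in stimulus (median 0.210), with an average log2 fold change of −1.33 ± 0.28 and a call at 9 h (−2.04 ± 0.65). The locus lies opposite a long noncoding RNA, AT1G16489, over 1434 bases, on the other strand. The median count of that RNA was 33 against 5 for MYB58. How reads were assigned by strand in the counting is not known, so the value of MYB58 is uncertain. MYB85 (AT4G22680), another lignin activator, fell by 0.55 on the log2 scale (SE 0.21), a call lost without any of 4 single mock libraries (adjusted p 0.0505 to 0.0567). SND2 (AT4G28500), a NAC factor under the NST switches, and MYB103 (AT1G63910), linked to syringyl lignin, gave no call (0.22 ± 0.20 and −0.37 ± 0.51).

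The cellulose synthases CESA4 (AT5G44030), CESA7 (AT5G17420) and CESA8 (AT4G18780) form the complex that spins secondary wall cellulose, and all 3 were lower. CESA7 ran from 7.74 to 11.9 CPM in mock (median 8.72) and from 5.58 to 9.94 CPM in stimulus (median 6.31). Its 10 h values were 11.1, 9.96 and 11.9 CPM in mock and 6.40, 6.31 and 9.94 CPM in stimulus. Only its replicate 3 in the stimulus approached the mock range at 10 h. CESA7 fell by 0.40 ± 0.08 on the log2 scale on average (edgeR adjusted p = 1.75e-04) and by 0.54 ± 0.17 at 10 h (adjusted p = 0.0324).

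CESA8 ran from 9.23 to 12.2 CPM in mock (median 11.0) and from 5.56 to 14.6 CPM in stimulus (median 8.44). At 10 h it stood at 11.5, 11.0 and 12.2 CPM in mock and at 9.51, 8.20 and 14.6 CPM in stimulus, where replicate 3 was the highest of all 29 libraries. Its average log2 fold change of −0.24 ± 0.10 (adjusted p = 0.0383) was −0.43 ± 0.06 in replicates 1 and 2 and 0.04 ± 0.08 in replicate 3 (adjusted p = 0.71), and the call was lost without any of 15 single libraries (adjusted p 0.0513 to 0.0693). CESA4 ran from 12.6 to 17.6 CPM in mock (median 15.4) and from 7.33 to 12.7 CPM in stimulus (median 9.10), and fell by 0.65 ± 0.08 on average. CESA4 shares 17 bases on its own strand with the neighbouring locus AT5G44020, whose median count was 347.5 against 235.5 for CESA4, so its value is uncertain.

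The xylan genes gave small and mixed differences. IRX9 (AT2G37090), IRX10 (AT1G27440) and IRX14 (AT4G36890) act in the synthesis of the xylan backbone, IRX8 (AT5G54690) and FRA8 (AT2G28110) in its reducing end sequence, and IRX15 (AT3G50220) is needed for normal chain length. IRX9 ran from 1.39 to 3.36 CPM in mock (median 2.27) and from 0.756 to 2.87 CPM in stimulus (median 1.42). At 10 h it stood at 2.28, 3.36 and 2.81 CPM in mock and at 0.820, 1.56 and 1.90 CPM in stimulus, with no overlap. Its average log2 fold change was −0.54 ± 0.20 (adjusted p = 0.0269), made up of −0.93 ± 0.16 in replicates 1 and 2 and −0.08 ± 0.17 in replicate 3. The difference between these sets was not tested. The call was lost without the identical columns (−0.49 ± 0.21, adjusted p = 0.0548), and at 10 h a call was made with the replicate block (−1.03, adjusted p = 0.0131) but not without it.

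IRX14 ran from 12.4 to 16.9 CPM in mock (median 14.7) and from 13.8 to 23.7 CPM in stimulus (median 16.4), and rose by 0.22 ± 0.07 on the log2 scale (edgeR adjusted p = 0.0125). Its 5 highest values were the stimulus libraries of replicate 3, at 18.2 to 23.7 CPM, and in replicates 1 and 2 alone the difference was 0.11 ± 0.05 (adjusted p = 0.0501). IRX10, IRX8 and FRA8 gave no call, with 95% intervals of the average of −0.19 to 0.20, −0.19 to 0.40 and −0.39 to 0.32. IRX15 gave no call on average (−0.52 ± 0.24, adjusted p = 0.0697) but was called as lower with the replicate block (−0.51, adjusted p = 0.0432). It was lower at 8 h (−1.82 ± 0.54), when its stimulus libraries stood at 0.0852, 0.344 and 0.328 CPM and its mock libraries at 0.758, 0.713 and 1.21 CPM.

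**Figure D2:**
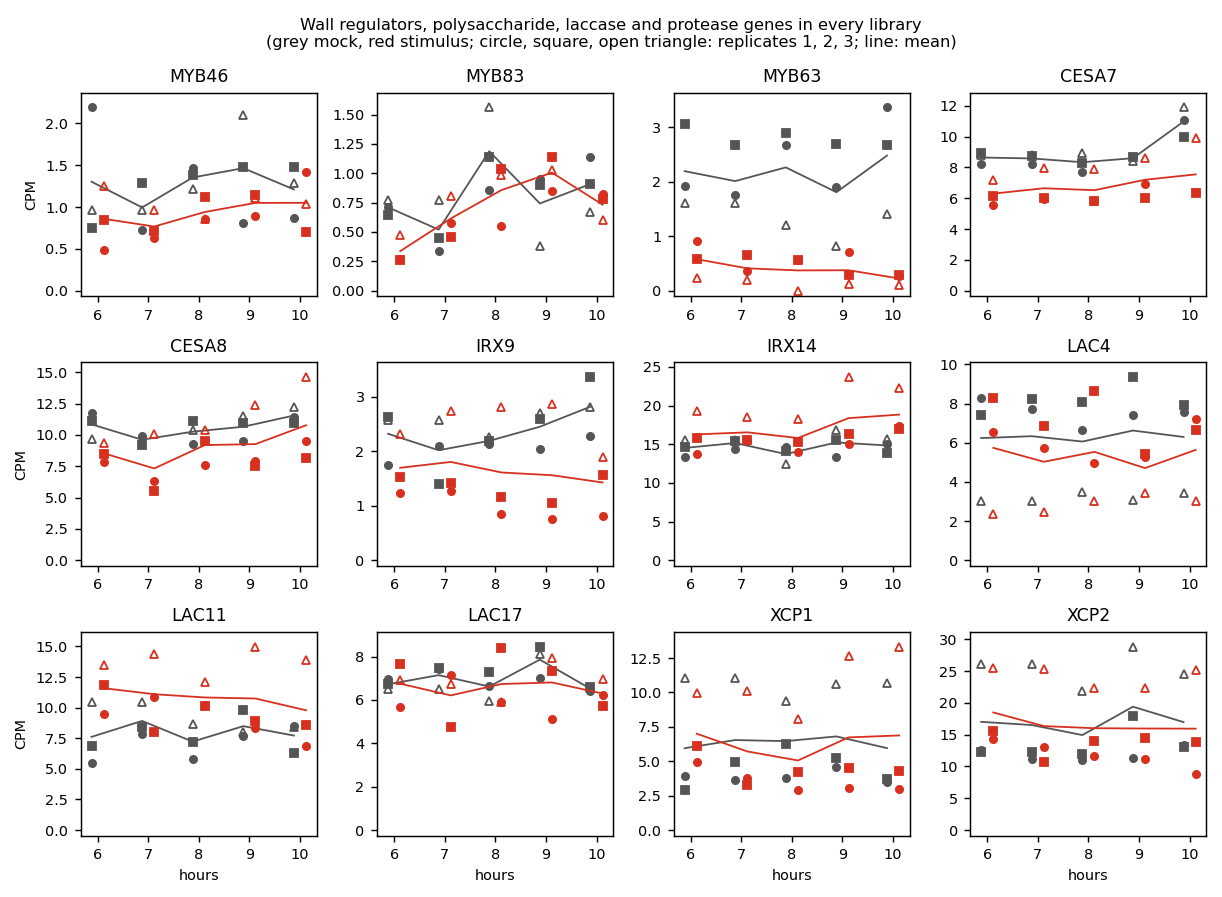
CPM in each library (y axis) by hour (x axis) for 12 wall regulators, polysaccharide, laccase and protease genes, mock in grey and stimulus in red, with a symbol per replicate number and lines through the means of 3. Stimulus points lie below mock points of the same hour throughout for MYB63, with a higher mean line at every hour for LAC11, and among them for LAC17 and XCP2, while XCP1 and LAC4 separate by replicate 3 rather than by treatment.

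All 8 entry genes fell, and 3 of them were the most abundant members per kilobase in mock. Per kilobase, PAL1 (AT2G37040) held 290 RPKM in mock and 161 RPKM in stimulus, C4H (AT2G30490) 163 and 96.1 RPKM, and PAL2 (AT3G53260) 155 and 67.0 RPKM, whereas the cellulose synthases held 2.01 to 4.06 RPKM, MYB46 1.03 and 0.745 RPKM, and the vessel protease gene XCP2 (AT1G20850) 11.8 RPKM in mock. PAL1 to PAL4 (AT3G10340) deaminate phenylalanine, C4H hydroxylates the product, and the 4CL enzymes activate it as a coenzyme A ester.

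PAL1 stood at 535, 606 and 762 CPM in mock at 6 h and at 514, 618 and 368 CPM in stimulus. By 10 h PAL1 stood at 1221, 1206 and 826 CPM in mock and at 457, 567 and 332 CPM in stimulus. The groups overlapped at 6 h and lay apart at 10 h, where mock replicates 1 and 2 held the highest PAL1 values of all 29 libraries and each stimulus library held less than its counterpart at 6 h. The log2 fold change of PAL1 was −0.34 ± 0.29 at 6 h (edgeR adjusted p = 0.488) and −1.26 ± 0.30 at 10 h (adjusted p = 0.00456).

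PAL2 followed the same course. It stood at 263, 298 and 558 CPM in mock at 6 h and at 215, 270.4 and 189 CPM in stimulus. By 10 h PAL2 stood at 531, 556 and 548 CPM in mock and at 159, 202 and 159 CPM in stimulus. Its groups lay far apart at 10 h, with a log2 fold change of −1.65 ± 0.27 (edgeR adjusted p = 1.5e-04), and at 6 h the difference was −0.73 ± 0.26 (adjusted p = 0.0778), called with the replicate block (−0.72, adjusted p = 0.0387). C4H stood at 399, 359 and 432 CPM in mock at 10 h and at 157, 194 and 205 CPM in stimulus, a log2 fold change of −1.10 ± 0.24 (adjusted p = 0.00247).

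The mock levels of these genes climbed in replicates 1 and 2, where the mock slope of PAL1 was 0.30 log2 units per hour, that of PAL2 0.27, that of 4CL3 (AT1G65060) 0.24 and that of C4H 0.22, and the stimulus slopes lay between −0.11 and −0.03. With all 30 columns none of these mock slopes was called, at 0.20 ± 0.07 for PAL1 (adjusted p = 0.199), 0.15 ± 0.06 for PAL2 (adjusted p = 0.336), 0.18 ± 0.10 for 4CL3 (adjusted p = 0.664) and 0.12 ± 0.05 for C4H (adjusted p = 0.518). In mock replicate 3 PAL2 stood at 558 CPM in the column shared by 6 and 7 h, whose hour is not known, and at 548 CPM at 10 h. With all 30 columns edgeR called 0 of the 39 members for a slope that differed between the treatments, against 0.019% of all loci. At an unadjusted p under 0.05 there were 4, all with the lower slope in the stimulus, and DESeq2 called 0. Without the identical columns PAL2 and C4H were called (−0.37 and −0.32 per hour, adjusted p = 0.0198 and 0.0142), and in replicates 1 and 2 alone 6 members were called (PAL1, PAL2, C4H, 4CL3, CCR1 (AT1G15950) and FAH1 (AT4G36220)), all with the lower slope in the stimulus, against 4.46% of loci.

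4CL2 (AT3G21240) showed the largest fall of the entry genes. It ran from 4.70 to 12.6 CPM in mock (median 9.00) and from 0.590 to 4.75 CPM in stimulus (median 3.31), and its average log2 fold change was −1.66 ± 0.29 (edgeR adjusted p = 4.9e-05). Replicate 3 held the lowest values in both treatments, and the fold change was −1.49 ± 0.12 in replicates 1 and 2 and −2.68 ± 0.19 in replicate 3. 4CL1 (AT1G51680) ran from 108 to 139.8 CPM in mock and from 45.5 to 100.3 CPM in stimulus with no overlap over all 29 libraries, and fell by 0.78 ± 0.09. 4CL3, whose promoter carries the pair of AC element I copies printed above and which is linked to flavonoid rather than lignin synthesis, fell by 0.81 ± 0.19. PAL3 (AT5G04230) and PAL4 fell by 0.76 ± 0.17 and 0.86 ± 0.11.

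**Figure D3:**
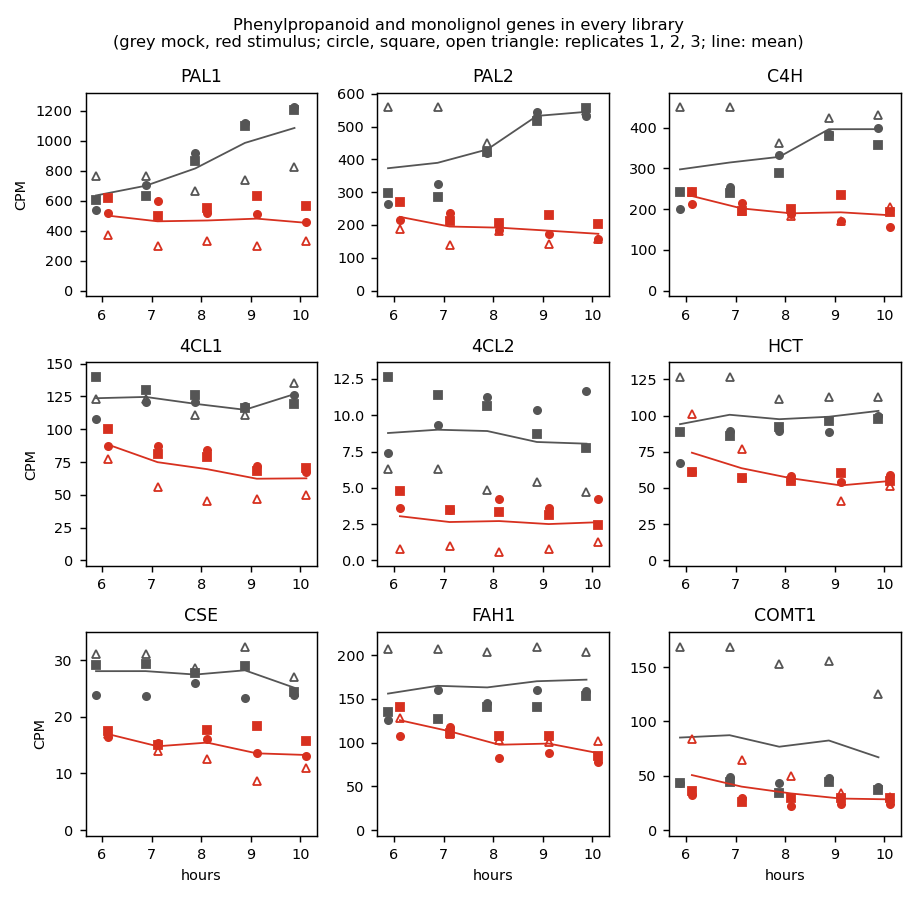
CPM in each library (y axis) by hour (x axis) for 9 phenylpropanoid and monolignol genes, mock in grey and stimulus in red, with a symbol per replicate number and lines through the means of 3. Mock PAL1 and PAL2 climb in replicates 1 and 2 from 535 and 263 CPM or a little more at 6 h to 1206 and 531 CPM or more at 10 h, and 4CL1 and CSE show no overlap of red and grey points.

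Of the monolignol genes 8 of 10 were lower. HCT (AT5G48930), CYP98A3 (AT2G40890) and CSE (AT1G52760) build the caffeoyl intermediate, CCoAOMT1 (AT4G34050) and COMT1 (AT5G54160) methylate the ring, FAH1 hydroxylates it for syringyl units, and the CCR and CAD enzymes reduce the side chain to the alcohol. COMT1 ran from 34.1 to 169 CPM in mock (median 44.3) and from 22.1 to 83.6 CPM in stimulus (median 29.8). Mock replicate 3 held 125 to 169 CPM and the other mock libraries 48.8 CPM or less. The average log2 fold change of COMT1 was −1.16 ± 0.31 (edgeR adjusted p = 0.00279), −0.58 ± 0.07 in replicates 1 and 2 and −1.68 ± 0.15 in replicate 3.

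CCR2 (AT1G80820), the reductase linked to responses to pathogens rather than to developmental lignin, ran from 2.73 to 6.01 CPM in mock (median 4.25) and from 1.29 to 3.21 CPM in stimulus (median 1.79). It fell by 1.09 ± 0.12 on the log2 scale and was one of 2 members called at 6 h, when mock stood at 2.90, 5.43 and 5.33 CPM and stimulus at 1.29, 1.79 and 2.44 CPM. The other was CSE, a caffeoyl shikimate esterase, which ran from 23.4 to 32.4 CPM in mock (median 27.4) and from 8.68 to 18.3 CPM in stimulus (median 15.4), with no overlap over all 29 libraries, and which was lower at each of the 5 hours. Its average log2 fold change was −0.89 ± 0.09.

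HCT and CYP98A3, whose promoters are printed above, fell by 0.73 ± 0.10 and 0.54 ± 0.10, and FAH1 by 0.67 ± 0.09. CAD4 (AT3G19450) and CAD5 (AT4G34230), the main alcohol dehydrogenases of lignin, had the smallest changes among the 8 called, −0.40 ± 0.12 and −0.23 ± 0.09. The change of CAD4 was −1.08 ± 0.11 in replicate 3 and −0.04 ± 0.07 in replicates 1 and 2 (adjusted p = 0.623), where it was not called. CAD5 declined with time in both treatments, by 0.24 ± 0.05 per hour in the stimulus (adjusted p = 0.0107) and by 0.20 ± 0.05 per hour in mock (adjusted p = 0.0343), and its average call was lost without any of 11 single libraries (adjusted p 0.0504 to 0.0591) and without the identical columns (−0.21 ± 0.09, adjusted p = 0.0601).

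CCoAOMT1 and CCR1 missed the threshold by little, at −0.56 ± 0.24 (adjusted p = 0.0502) and −0.35 ± 0.15 (adjusted p = 0.0546). Both stood higher in replicate 3 than in the others of their treatment: CCoAOMT1 at 350.3 to 395 CPM in mock replicate 3 and 130.4 to 175 CPM in the other mock libraries. With the replicate number as a block both were called (adjusted p = 1.38e-06 and 1.25e-06), as they were in replicates 1 and 2 alone (−0.34 ± 0.07 and −0.35 ± 0.05) and in the fits that left out 15 and 9 single libraries. Without the identical columns neither was called, and the values were −0.32 ± 0.22 (adjusted p = 0.219) and −0.22 ± 0.14 (adjusted p = 0.192). That fit kept stimulus replicate 3 at 6 and 7 h without its mock counterpart, so treatment and replicate number were unbalanced in it. In replicate 3 alone the values were −0.79 and −0.38.

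The laccases LAC4 (AT2G38080), LAC11 (AT5G03260) and LAC17 (AT5G60020) oxidise monolignols in the wall, and 1 of the 3 was called, as higher. LAC11 ran from 5.48 to 10.5 CPM in mock (median 7.91) and from 6.83 to 14.97 CPM in stimulus (median 10.2), and rose by 0.44 ± 0.12 on the log2 scale (edgeR adjusted p = 0.00482), by 0.35 ± 0.09 in replicates 1 and 2 and by 0.54 ± 0.10 in replicate 3. At 10 h its groups overlapped, at 8.48, 6.26 and 8.42 CPM in mock and 6.83, 8.61 and 13.9 CPM in stimulus (0.34 ± 0.28, adjusted p = 0.425). In replicates 1 and 2 alone its log2 fold change was 0.80, 0.25 and 0.65 at 6, 7 and 8 h. It was −0.009 at 9 h and 0.05 at 10 h in those replicates.

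LAC4 ran from 3.02 to 9.35 CPM in mock (median 7.49) and from 2.38 to 8.64 CPM in stimulus (median 5.45). At 10 h LAC4 stood at 7.55, 7.91 and 3.42 CPM in mock and at 7.21, 6.64 and 3.04 CPM in stimulus. Replicate 3 was low in both treatments. Its average of −0.25 ± 0.24 was not called (adjusted p = 0.395) but was with the replicate block (−0.24, adjusted p = 0.00972). LAC17 stood at 6.41, 6.60 and 6.53 CPM in mock at 10 h and at 6.23, 5.70 and 6.96 CPM in stimulus, and the 95% interval of its average log2 fold change reached from −0.25 to 0.08.

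XCP1 (AT4G35350) and XCP2, cysteine proteases that clear the contents of dying vessel cells, gave no call at any hour. XCP1 stood at 3.48, 3.70 and 10.7 CPM in mock at 10 h and at 3.01, 4.30 and 13.3 CPM in stimulus, and XCP2 at 13.4, 13.0 and 24.5 CPM and at 8.85, 13.8 and 25.2 CPM. Both separated by replicate number and not by treatment: replicate 3 lay above the other libraries at every hour in both treatments. The average log2 fold change of XCP1 was −0.02 ± 0.30 and that of XCP2 −0.03 ± 0.21, with 95% intervals from −0.65 to 0.60 and from −0.46 to 0.40. With replicates 1 and 2 alone the values were −0.07 ± 0.13 and 0.02 ± 0.09.

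Hour by hour, no member was higher in the stimulus at any of the 5 times, while lower calls were found at each. At 6 h 2 of 39 were lower against 3.84% of all loci, at 7 h 8 against 8.14%, at 8 h 10 against 6.39%, at 9 h 13 against 8.55% and at 10 h 11 against 9.34%. The 0 higher calls stood against 6.03%, 8.9%, 6.54%, 7.97% and 9.74% of all loci in the same order. At an unadjusted p under 0.05 edgeR gave 1, 0, 1, 0 and 1 members higher, and DESeq2 called 0 higher at each hour. With the replicate block the higher calls were 1, 0, 1, 0 and 1, the last of them IRX14 at 10 h (0.33, adjusted p = 0.0287), and the lower calls were 11, 17, 19, 19 and 20. The shares of all loci above belong to the fit without the block, and those with it are not given here.

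The lower calls at 10 h were MYB63, CESA4, CESA7, PAL1, PAL2, PAL4, C4H, 4CL1, HCT, CSE and FAH1. The median log2 fold change of the 39 was −0.35 at 6 h, −0.43 at 7 h, −0.50 at 8 h, −0.64 at 9 h and −0.61 at 10 h, with 33 of 39 below 0 at 10 h. Several hourly counts rested on 1 library. Without stimulus 8 h replicate 3 the count at 8 h was 2, and without mock 8 h replicate 3 or stimulus 8 h replicate 1 it was 6. Without stimulus 7 h replicate 3 the count at 7 h was 4, and without mock 9 h replicate 1 that at 9 h was 8. At 6 h it was 1 without mock replicate 2, mock replicate 3, stimulus replicate 1 or stimulus replicate 3 of that hour. Without both identical columns the counts at 6 and 7 h were 1 and 4.

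**Figure D4:**
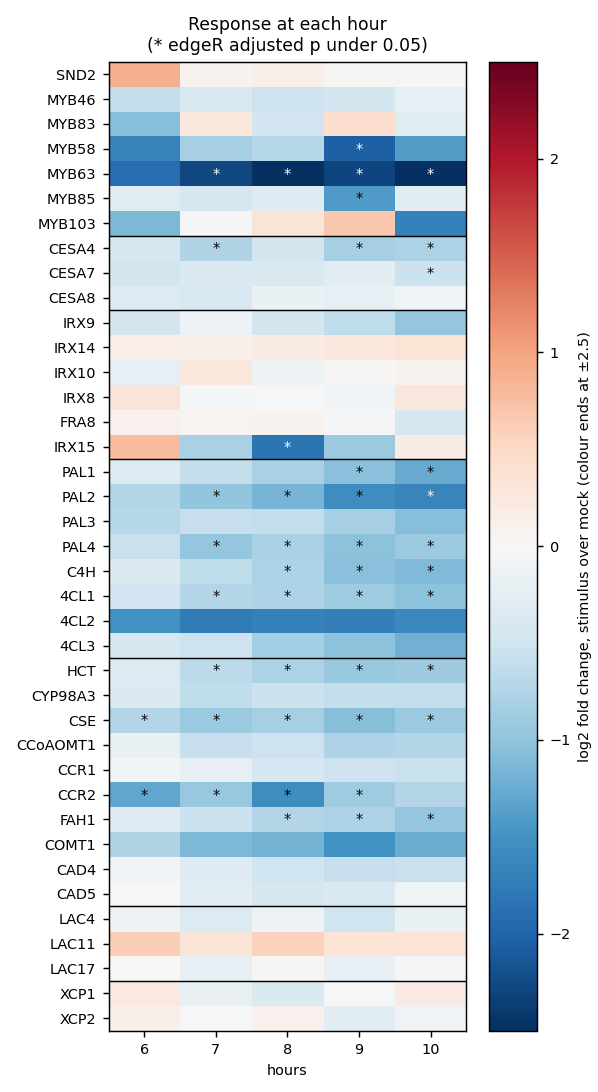
Log2 fold change of stimulus over mock (colour) at each hour (x axis) for the 39 tested members in order of role (y axis, lines between roles), with asterisks for an edgeR adjusted p under 0.05. No asterisk falls on a red cell, and the marks gather in the phenylpropanoid and monolignol rows, where CSE is marked at all 5 hours.

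Within the stimulus itself 1 of 39 members declined over the hours, CAD5, against 0.214% of all loci, and none rose, against 0.803%. At an unadjusted p under 0.05 edgeR gave 2 rising and 4 declining, and DESeq2 called 0 rising and 1 declining. The CAD5 call was lost without stimulus 6 h replicate 3 or stimulus 10 h replicate 1. With the replicate block 1 rose, MYB83, and 4 declined (4CL1, CCR1, FAH1 and CAD5).

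The change differed in size between the sets of replicates. Of 35 members with a value in both sets, 30 had the same sign in replicates 1 and 2 and in replicate 3, and 27 were below 0 in both. Replicate 3 gave the lower value for all 8 entry genes and 9 of 10 monolignol genes, CAD5 being the exception: PAL1 fell by 0.64 ± 0.06 in replicates 1 and 2 and by 1.25 ± 0.07 in replicate 3, C4H by 0.58 ± 0.07 and 1.14 ± 0.07, and PAL3 by 0.28 ± 0.12 and 1.51 ± 0.11. For the 3 cellulose synthases it gave the higher value, at −0.53 ± 0.06 and −0.21 ± 0.09 for CESA7 in the same order. These differences between sets were not tested, and the standard errors for replicate 3 measure spread among its hours only.

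**Figure D5:**
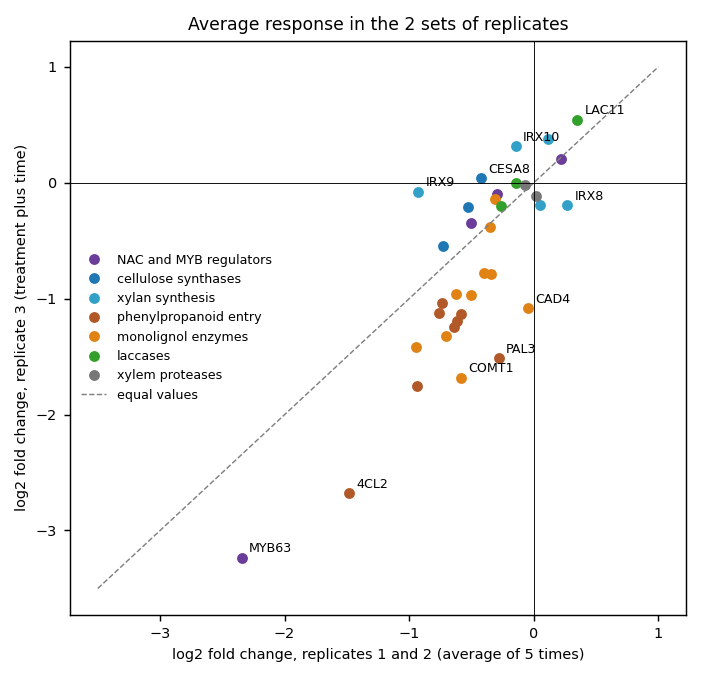
Average log2 fold change in replicates 1 and 2 (x axis) and in replicate 3 (y axis) for 35 members, coloured by role, with a dashed line of equal values. The phenylpropanoid entry genes and all monolignol genes but CAD5 lie below the line, and the cellulose synthases and IRX9 above it.

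Other genes of the same programme were looked at from lists of known members, also chosen with earlier results of these data known. Of the 7 VND factors, the vessel switches that stand above the members, 3 were higher on average and 1 lower, or 2 lower with the replicate block. Without the block 29.7% of all loci were higher on average and 27% lower. VND1 stood at 1.47, 1.02 and 0.794 CPM in mock at 10 h and at 4.48, 3.40 and 4.78 CPM in stimulus. VND2 stood at 5.38, 4.10 and 2.87 CPM in mock at 10 h and at 14.4, 12.4 and 11.5 CPM in stimulus. Their groups lay apart, and their average log2 fold changes were 1.34 ± 0.13 and 1.60 ± 0.14, whereas VND6 fell by 0.87 ± 0.23. VND3 rose by 0.70 ± 0.21. At 10 h, against the 9.74% of loci called higher, VND1 and VND2 were called and none of the 39 members was.

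Of 12 other wall regulators 9 were tested, with 2 higher (MYB42, 1.58 ± 0.44, and C3H15, 0.95 ± 0.23) and 3 lower (MYB43, −0.73 ± 0.17; KNAT7, −0.44 ± 0.14; C3H14, −0.44 ± 0.18), against 29.7% of all loci higher and 27% lower. C3H14 was at −0.76 in replicates 1 and 2 and at 0.37 in replicate 3. MYB42 held at most 1.03 CPM in any library. Of 9 tested repressors of the programme or of its enzymes, 3 were higher and 4 lower, against 29.7% of all loci higher and 27% lower. MYB4 and MYB32, MYB repressors of phenylpropanoid genes, fell by 0.60 ± 0.13 and 1.14 ± 0.13, together with XND1 and KFB50. VNI2, which binds and inhibits VND7, rose by 0.97 ± 0.18, by 1.55 in replicates 1 and 2 and by 0.06 in replicate 3. KFB01 and KFB20, F-box proteins that lead to the breakdown of PAL enzymes, rose by 1.56 ± 0.44 and 2.20 ± 0.43. Their values were 0.33 and 1.00 in replicates 1 and 2 and 2.28 and 3.81 in replicate 3. The KFB genes of the list did not rise together. KFB50 was lower, at −0.21 in replicates 1 and 2 and −0.92 in replicate 3. KFB39 gave no call on average, at −0.996 in replicates 1 and 2 and 1.27 in replicate 3.

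Of 5 tested peroxidases and laccases outside the members 3 were lower: PRX25 (−1.85 ± 0.24), PRX52 (−1.15 ± 0.13) and PRX71 (−0.67 ± 0.27, with 0.02 in replicate 3), against 27% of all loci. With the replicate block all 5 were lower. Shares of all loci in this paragraph belong to the fit without the block, and those with it are not given here. At 10 h PRX52 stood at 20.6, 11.3 and 15.3 CPM in mock and at 6.34, 4.30 and 5.38 CPM in stimulus. Of 15 other xylan and mannan genes 3 were higher and 5 lower, with called changes between −0.64 and 0.43 on the log2 scale, against 29.7% of all loci higher and 27% lower. Of 8 other wall assembly genes 2 were higher, against 29.7% of all loci, the fasciclin-like proteins FLA11 (0.35 ± 0.08) and FLA12 (0.52 ± 0.19). With the replicate block 3 of the 8 were higher and 1 lower. Of 4 tested genes of xylem cell death edgeR called 0, and 0 reached an unadjusted p under 0.05 on average, although 1, the nuclease gene BFN1, did at 10 h. With the replicate block 1 of the 4 was higher, SCPL48 (0.16, adjusted p = 0.0449). Of 6 primary wall cellulose genes 2 were lower, against 27% of all loci, CESA5 by 0.19 ± 0.05 and CESA9 by 0.42 ± 0.16. When counts were summed over the 5 times, VND1, VND2, MYB32, PRX25 and PRX52 were still called. VND3 (adjusted p = 0.234), VND6 (0.254), MYB42 (0.204), C3H15 (0.108), KFB01 (0.246), KFB20 (0.0917), VNI2 (0.126) and FLA12 (0.275) were among the list genes named here that lost the call.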

How the data were processed

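The deposited table holds raw read counts, made by the authors, of 38194 loci in 30 columns, from stranded libraries depleted of ribosomal RNA, per the file headers and the labels. BWA and the TAIR10 build were used per the submitters' processing notes. For read counting, tool and gene models were not given in the sources used here. Loci were paired by AGI code with TAIR10.1 (37751 matched), from which RefSeq gene models, exon lengths and promoter windows were taken, credited to that build only.

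Counts were filtered with filterByExpr, scaled by TMM and tested with edgeR 4.0.16 (limma 3.58.1, R 4.3.3) with 1 mean per group over all 30 columns. DESeq2 1.42.0 was an alternative. Contrasts were stimulus minus mock at each hour, their average, and linear slopes. Library depth sets the precision of low genes such as the NST and MYB factors. The members and lists were chosen with earlier results of these data known. Named genes are the members at the centre of each role and up to 2 called each way per role by average change, and up to 3 each way per list.

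For each hour and replicate number, the deviations of the mock and the stimulus library from their group means were correlated. All 15 correlations exceeded 0.1 (0.158 to 0.486), although the best match of a stimulus library bore its own number in only 9 cases (4 of 10 in replicates 1 and 2). The main fit, from which the calls come unless a setting is named, took no account of the numbers. A fit with the replicate number as a block was an alternative. For the members the block is given where it changes a call on average or a count by over 1.5 times, and for some single hours and slopes. Shares of all loci with the block are not given.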

Additional observations from a re-analysis of the deposited data

How the results depend on the processing

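Counts of called members moved by over 1.5 times in these cases. With the replicate block, 12, 17 and 20 members were called at 6, 7 and 8 h, 1 higher and 20 lower at 10 h, 5 with a slope in the stimulus and 1 (CCR1) with a slope difference. DESeq2 called 4 at 6 h. Without the identical columns the counts were 1 at 6 h, 4 at 7 h and 2 for the slope difference. Replicates 1 and 2 alone gave 1 higher on average, 11, 14, 19 and 21 at 6, 7, 8 and 9 h, 19 lower at 10 h, and 6 for either slope. Counts summed over times gave 0 higher and 5 lower on average. Only the 6 libraries of an hour gave 0, 3, 2 and 4 at 6, 7, 8 and 9 h. Without the 6 h or the 10 h libraries the slope in the stimulus gave 0. Leaving out single libraries gave 1 to 3 at 6 h, 4 to 9 at 7 h, 2 to 10 at 8 h, 8 to 13 at 9 h and 0 to 1 for the slope in the stimulus. The cause of these shifts was not tested. Several of the settings also had fewer libraries. These counts stand here without the share of all loci called under the same setting. The count of lower members on average was 19 to 28 under the alternatives other than summed counts.

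Of single members, CESA8 changed sign in replicate 3 alone (0.037, adjusted p = 0.71). DESeq2 size factors, other filters and removal of organelle loci turned no direction, but they moved calls close to the threshold: CCoAOMT1 and CCR1 were called with DESeq2, with its size factors and without organelle loci, MYB46, MYB85 and CESA8 lost the call with no count filter, and MYB46 and CESA8 with the stricter one. At a few counts per library, changes of MYB103, MYB58 and the NST factors were limited by depth, and the 3 libraries per group limit single hours.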
